A study of Mus musculus with 21 samples.

Results

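The expression of 10 genes of MHC class II antigen presentation was followed in macrophages through a time course of treatment. They are Ciita, H2-Aa, H2-Ab1, H2-Eb1, Cd74, H2-DMa, H2-DMb1, H2-DMb2, H2-Oa and Ctss, and they were chosen by name, through their Ensembl identifiers and not through any measured value. All 10 were found among the 23250 genes of the deposited table, and all 10 passed the filter on low counts that left 13468 genes for testing.

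RNA came from macrophages grown from the bone marrow of C57BL/6J mice over 7 days, in medium with 2.5% supernatant of cells that secrete GM-CSF, a growth factor for myeloid cells. The series describes the cells of every group as lacking the mannose receptor, an endocytic lectin encoded by Mrc1. Cells at 0 h had no treatment, and the others received for 4, 12 or 24 h either FcMR, in which the part of the mannose receptor outside the cell is joined to the Fc region of human IgG1, or an isotype control. Each of the 7 groups had 3 libraries, 21 in all. There was no untreated group at 4, 12 or 24 h, so in the comparisons with untreated cells the control protein and the time in culture cannot be told apart. Marrow cultures of this kind are known to hold dendritic-like cells beside macrophages. The series asks what soluble mannose receptor does to macrophages.

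MHC class II molecules are pairs of an alpha and a beta chain that display peptides from endosomes to CD4+ T cells. New pairs are held by the invariant chain (Cd74), which cathepsin S (Ctss) and other proteases cut down until a small fragment is left in the peptide groove, and H2-DM exchanges this fragment for antigen peptides under the restraint of H2-O. Transcription of these genes depends on CIITA, a coactivator that sits on the factors RFX, CREB and NF-Y bound to the X and Y boxes of the promoters, and myeloid cells make CIITA from a promoter of their own.

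Library totals ran from 5532225 to 66729533 counts, and Mrc1 had 0 to 11 counts per library, at most 0.588 CPM (counts per a fixed total of reads, after scaling the libraries to each other by TMM). Macrophage markers were high in every group: the summed level of 9 of them had a median of 24378 CPM in untreated cells and of 21035 to 32458 CPM in the treated groups. Some libraries stood apart from their group. By the running number in their titles, FcMR 12 h replicate 1 and isotype 4 h replicate 3 each sit among the libraries of the other's group. When each library was compared with the mean profile of every group, leaving the library itself out of its group's mean, 18 of the 21 were closest to their own group. The exceptions were isotype 4 h replicates 2 and 3, both closest to FcMR at 4 h (r = 0.316 and 0.306, against 0.306 and −0.075 with their own group), and FcMR 12 h replicate 1, closest to FcMR at 24 h (r = 0.4, against 0.272). After a correction of each library for the GC content of genes, isotype 4 h replicate 3 was the only exception. This check was chosen after the data were seen. The isotype libraries of 4 h also differed most in how GC-rich genes were represented: the mean log2 level of the GC-richest 10% of genes minus that of the GC-poorest 10%, relative to all libraries, was −0.837, −1.585 and 0.628. Transcripts of 9 of the 10 class II genes are 51.4 to 57.5% GC, and those of Ctss 45.9%. Sums of 7 granulocyte markers were 866 to 1172 CPM in isotype 4 h libraries and 279 to 483 in FcMR 12 h libraries. An exchange of labels between these groups was not tested. The files used here do not settle whether any of the libraries named here carries the wrong label. The labels were kept as given, so the values at 4 h and 12 h hold only for the libraries as labelled. For the comparisons of 4 h and 12 h, values without both libraries out of title order are given below where they differ in call or size.

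Promoter sequences were searched for letters of the X and Y boxes. RefSeq promoter windows of GRCm38.p6, which run from 250 bases before to 50 bases after a start site, were at hand for 7 of the 9 members searched for (not for H2-Ab1 and Ciita), and were searched on both strands for GATTGG, the core of the Y box to which NF-Y binds, and for AGNAAC, the core of the X box to which RFX binds. The stretches below are shown because they hold both letter groups in the order and distance of a class II promoter, or lack one of them; capitals mark the letters found, and each reads 5′ to 3′ in the direction of the gene. They lie at chr17:34305761-34305816 (plus strand) for H2-Eb1, chr17:34092289-34092344 (plus) for H2-Oa and chr17:34287863-34287918 (minus) for H2-Aa, and, for 2 further class II genes described later, at chr17:34238801-34238856 (plus) for H2-Ob and chr17:34325528-34325583 (plus) for H2-Eb2.
H2-Eb1: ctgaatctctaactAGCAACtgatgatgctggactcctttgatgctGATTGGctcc
H2-Oa: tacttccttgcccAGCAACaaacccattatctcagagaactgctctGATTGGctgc
H2-Aa: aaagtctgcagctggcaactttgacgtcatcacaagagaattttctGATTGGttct
H2-Ob: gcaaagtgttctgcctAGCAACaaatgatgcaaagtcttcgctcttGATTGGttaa
H2-Eb2: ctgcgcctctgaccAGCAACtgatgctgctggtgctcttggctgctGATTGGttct

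Across all 32851 windows, GATTGG was found in 16.1% and AGNAAC in 48.1%, so either alone is common. AGNAAC followed by GATTGG after 10 to 30 bases was found in 129 windows (0.393%), and of the members H2-Eb1, H2-DMb1 and H2-Oa were among them, with H2-Ob and H2-Eb2 of the further class II genes. That spacing was chosen after these sequences were seen, so the share is a description. The H2-Aa and H2-DMb2 windows held GATTGG and no AGNAAC, one of the H2-DMa windows held both letter groups outside that spacing and the other held neither, and the Ctss window held neither.

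H2-DMb1 and H2-DMb2 are neighbouring near-copies that encode the beta chain of H2-DM. Their promoter stretches of 56 bases around these letters were the same at 50 positions (89.3%). Both stretches lie before the RefSeq start sites but inside the annotated spans of the genes given below, so they may be transcribed in part. The 30 bases around the X box are shown, at chr17:34153092-34153121 for H2-DMb1 and chr17:34145121-34145150 for H2-DMb2 (both plus strand), because the letters AGNAAC were found in the former and not in the latter.
H2-DMb1: acctAGTAACtgatgatgctaggctgattc
H2-DMb2: acctattaaccgatgatgctaggctaagtc
Counted from the 5′ end, with the base of H2-DMb1 first, the differences are G6T, T11C, G26A and T28G. The annotated transcripts are alike as well: of the 31-base words of H2-DMb1, 31.4% also occur in another gene, H2-DMb2, and of those of H2-DMb2, 36.6% occur in another gene, mostly H2-DMb1. Counts of this pair were estimated by the authors' software and may be split unevenly between both genes, so their sum was tested too.

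In the time course as a whole, 9 of the 10 genes fell and 1 rose. After 24 h with the isotype control, mean levels were 8.02% of the untreated mean for H2-DMb2, 17% for H2-Oa, 22.3% for Ciita, 24.9% for H2-DMa and between 29.0 and 47.6% for the other 4 MHC genes and Cd74, while Ctss stood at 191%. Between FcMR and the isotype control the members differed by −0.66 to 0.88 on the log2 scale at any time. At 4 h 4 genes were higher with FcMR, and at 12 h none passed the test. At 24 h H2-DMb2 and Ciita were higher and Ctss was lower. Of all genes tested, 17.7, 16.1 and 20.9% passed at 4, 12 and 24 h. In fits with fewer libraries the 4 h count fell as low as 0 and rose as high as 9. Ciita at 24 h passed in 1 of 6 fits that left out 1 library. A gene is called changed here at a Benjamini-Hochberg adjusted p under 0.05 in edgeR's quasi-likelihood test across all 13468 genes. Nothing in the labels says whether replicates came from separate mice, so p-values measure the spread between these libraries only. In RNA from a bulk culture, fewer cells that express a gene and less of its RNA per cell cannot be told apart.

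**Figure D1:**
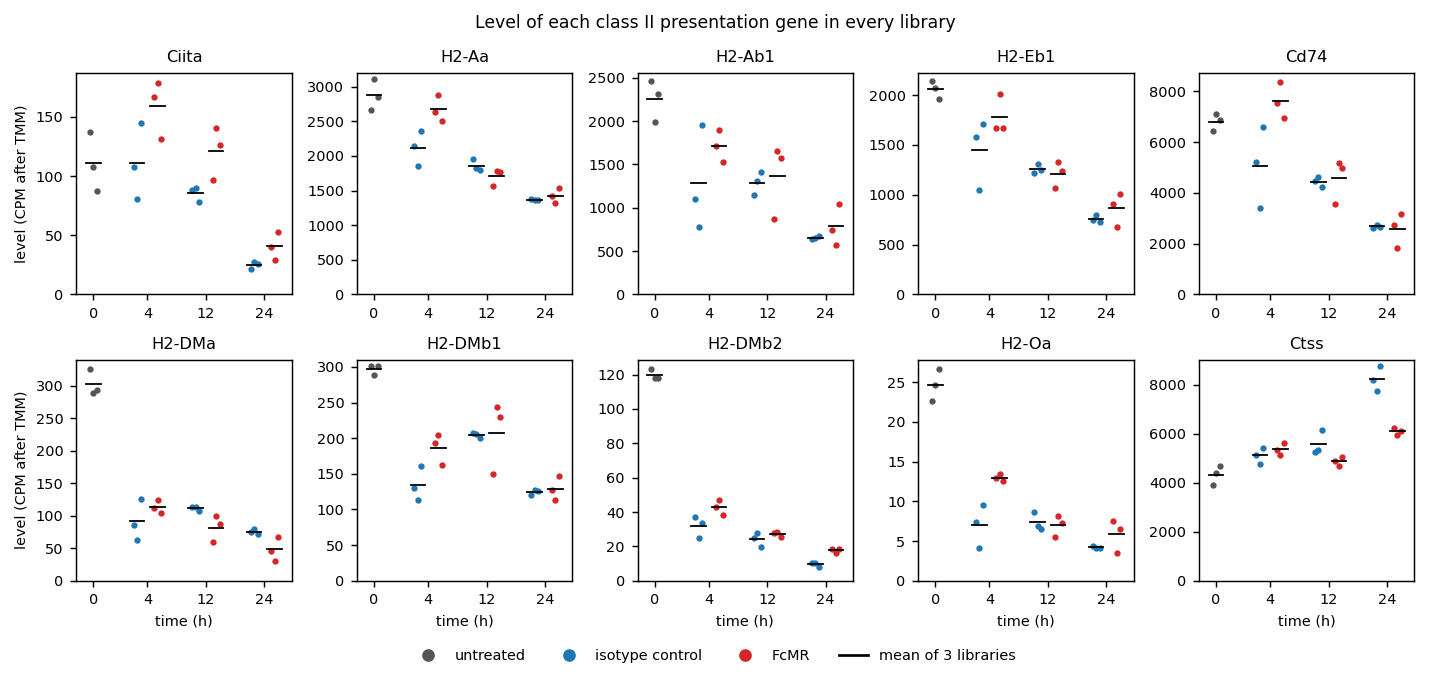
Level of each gene in CPM after TMM scaling (vertical axes, each from 0) against time in h, with 1 point per library and a bar at the mean of 3 libraries; grey is untreated, blue isotype control, red FcMR. Levels of 9 genes are lower at 24 h than at 0 h in both treatments, and those of Ctss are higher, with the isotype points (7729 to 8779 CPM) above the FcMR points (5954 to 6221 CPM).

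Against untreated cells, the isotype control group at 4 h had 7 members lower and 1 higher, where 15.2% of all genes tested were lower and 20.4% higher. At 12 h, 8 were lower and 1 higher (all genes: 19.6% and 22%), and at 24 h 9 were lower and 1 higher (all genes: 21% and 21.3%). The median log2 fold change of the members was −0.66, −0.67 and −1.61 at 4, 12 and 24 h, where that of all genes was between −0.037 and 0.033. With FcMR against the same untreated libraries, 4 members were lower and 1 higher at 4 h (all genes: 25.9% and 22.3%), 8 were lower and none higher at 12 h (23.4% and 24.7%), and 9 were lower and 1 higher at 24 h (25.4% and 26%). The members' medians were −0.3, −0.74 and −1.43, and the median of all genes at 4 h was −0.11 in this comparison. The medians at 4 h moved with the processing. After GC correction, which put the median of all genes at −0.025 here, the FcMR median at 4 h was −0.01 with 5 of the 10 above 0, and the isotype median was −0.41. Without both libraries out of title order the isotype median at 4 h was −0.96 and the FcMR median at 12 h −0.56. At 4 h with FcMR the members lower were H2-DMb2 (−1.48), H2-DMa (−1.42), H2-Oa (−0.92) and H2-DMb1 (−0.67), all of them genes of peptide editors, and Ctss was higher (0.31). At 24 h with FcMR the falls ran from −2.76 for H2-DMb2 and −2.67 for H2-DMa to −1.01 for H2-Aa. Both series of comparisons rest on the same 3 untreated libraries. With only the 6 libraries compared in the fit, the isotype count at 4 h was 5 and the FcMR count 8. The share of all genes called moved with them, from 35.6 to 23.1% for isotype and from 48.2 to 58.0% for FcMR. Without untreated replicate 1 the isotype count at 4 h was 5. Without FcMR 12 h replicate 1, the FcMR count at 12 h fell from 8 to 5 (H2-Ab1, H2-DMb1 and Cd74 no longer passed). It was 6 without both libraries out of title order, where 51.2% of all genes were called, against 48.1% with all libraries. Both counts at 24 h were 10 under every alternative run.

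Between FcMR and isotype at 4 h, 4 members were higher (H2-Aa, H2-DMb1, H2-DMb2 and H2-Oa), where 8.62% of all genes tested were higher and 17.7% were called in either direction. All 10 fold changes were above 0, with a median of 0.42 on the log2 scale, where the median of all genes was −0.073. At 12 h no member was called by edgeR, against 16.1% of all genes, and 2 had an unadjusted p under 0.05 in edgeR, in DESeq2 and in limma voom alike. At 24 h 3 were called, 2 higher and 1 lower, where 20.9% of all genes were called, 11.4% higher and 9.44% lower. The members' median was −0.01 at 12 h and 0.13 at 24 h. The 4 h count turned on single libraries: it was 7 without isotype 4 h replicate 3, 2 without isotype 4 h replicate 1, 1 without FcMR 4 h replicate 1, and 0 without isotype 4 h replicate 2 or without FcMR 4 h replicate 2. It was 9 (all but Ctss, median 0.62) without both libraries out of title order, 7 after GC correction, and 0 when only the 6 libraries compared were fitted. The share of all genes called moved with it, from 17.7% to 28.3%, 27.8% and 7.38% under these 3 settings. At 12 h, without both libraries, the only member called was Ciita (all genes: 15.4%), and the other 9 differed by −0.26 to 0.32.

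**Figure D2:**
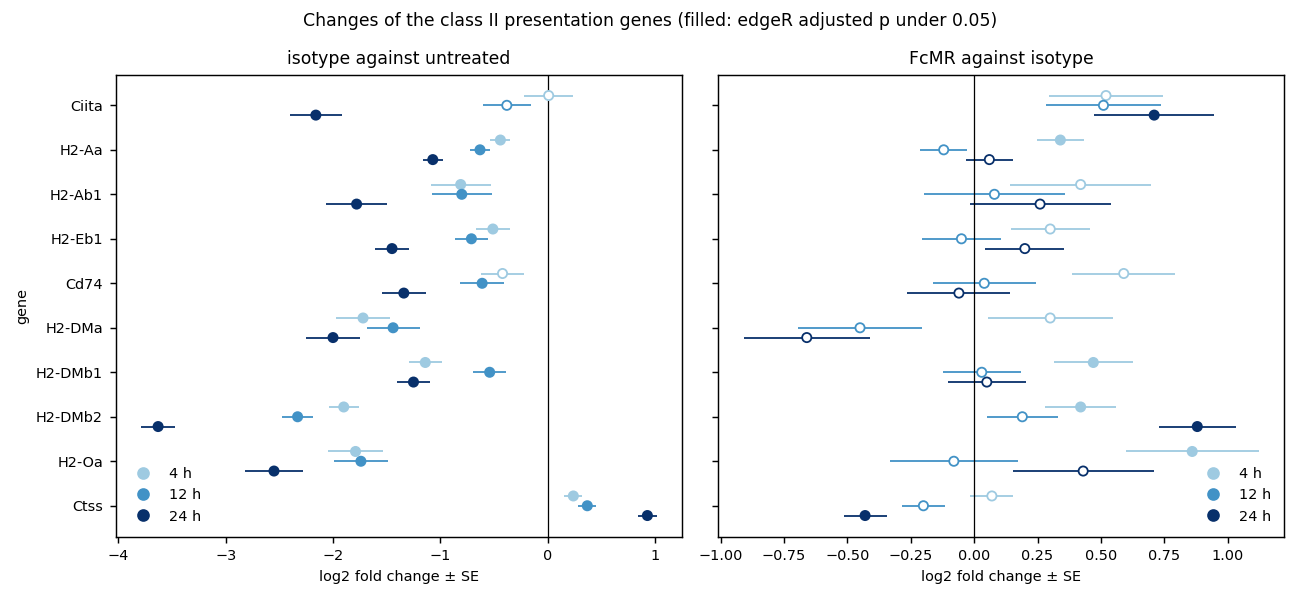
Log2 fold change with its standard error (horizontal axis) for each gene, isotype against untreated on the left and FcMR against isotype on the right, at 4, 12 and 24 h (light to dark); filled points have an edgeR adjusted p under 0.05. The left panel reaches −3.63 for H2-DMb2 at 24 h, and every value of the right panel lies between −0.66 and 0.88.

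Ciita (chromosome 16, 10480059 to 10528418) encodes the coactivator of class II promoters, and its fall below untreated cells passed the test at 24 h and not at 4 h or 12 h. Untreated libraries had 137, 108 and 87.3 CPM, isotype libraries 108, 80.3 and 145 CPM at 4 h, 88.3, 89.6 and 78.2 at 12 h, and 21.7, 27.2 and 25.3 at 24 h. The untreated and isotype values overlapped at 4 h and 12 h and stood far apart at 24 h. Against untreated it changed by 0.01 (SE 0.226) at 4 h, −0.38 (SE 0.225, edgeR adjusted p = 0.196) at 12 h and −2.16 (SE 0.24, adjusted p = 1.06e-06) at 24 h. The earlier times depended on the processing: after GC correction Ciita was called higher at 4 h (0.43, adjusted p = 0.0144) and lower at 12 h (−0.56, adjusted p = 0.00141), and with only the libraries compared it was called lower at 12 h (−0.39, adjusted p = 0.0438). With FcMR against untreated at 4 h it was at 0.52 (adjusted p = 0.0643), and at 0.88 after GC correction (adjusted p = 1.23e-05). DESeq2 (0.58, adjusted p = 0.026) and limma voom (0.54, adjusted p = 0.0461) called this difference too, among others. So did the edgeR fit without both libraries out of title order (0.53, adjusted p = 0.0267). It was not called with the replicate number as a block (0.52, edgeR adjusted p = 0.0787), and was called in 2 of 6 fits without 1 library.

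With FcMR, Ciita was at 167, 179 and 131 CPM at 4 h, 96.7, 141 and 126 at 12 h, and 40.5, 29 and 52.6 at 24 h. FcMR means were above isotype means at each time, the ranges overlapped at 4 h, and they did not at 12 h and 24 h. FcMR exceeded isotype by 0.52 at 4 h (SE 0.226, adjusted p = 0.129), 0.51 at 12 h (SE 0.225, adjusted p = 0.153) and 0.71 at 24 h (SE 0.237, adjusted p = 0.0415). The 24 h call was kept in 1 of 6 fits that left out 1 library, with log2 fold changes of 0.49 to 0.91 and adjusted p-values of 0.0111 to 0.155, and was lost without any 1 of the libraries other than FcMR 24 h replicate 2. It was also lost with limma voom (0.62, adjusted p = 0.115), with the replicate number as a block (0.7, adjusted p = 0.0591), with only the libraries compared (0.7, adjusted p = 0.067) and with no filter on low counts (0.72, adjusted p = 0.0563), and kept under the other planned settings. After GC correction the differences were 0.46, 0.72 and 0.88 and all 3 were called, and without both libraries out of title order they were 0.76, 0.65 and 0.71, also all called. Ciita shares 2.77% of its 31-base words with other genes, mostly Dexi, which overlaps it on the opposite strand.

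The chains of the classical class II molecules among the members had lower means with isotype than in untreated cells at each time. H2-Aa (chromosome 17, 34282744 to 34287823), the alpha chain of I-A, was at 2664, 3105 and 2851 CPM in untreated libraries. Isotype libraries had 2140, 1859 and 2360 CPM at 4 h, 1961, 1827 and 1792 at 12 h, and 1376, 1364 and 1366 at 24 h. Every isotype library was below every untreated one, and the log2 fold change was −0.44 (SE 0.0933), −0.63 (SE 0.0934) and −1.07 (SE 0.0941), with edgeR adjusted p-values of 0.00124, 3.07e-05 and 5.81e-08. FcMR libraries had 2634, 2885 and 2508 CPM at 4 h, which overlapped the untreated range and lay above all 3 isotype libraries. They differed from isotype by 0.34 (SE 0.0932, adjusted p = 0.0177), a call kept in 4 of 6 fits without 1 library and lost without FcMR 4 h replicate 2 or isotype 4 h replicate 2 (0.28 and 0.29, adjusted p = 0.0857 and 0.0589). Without both libraries out of title order it was 0.42. At 12 h and 24 h FcMR and isotype differed by −0.12 and 0.06, neither called.

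H2-Ab1 (chromosome 17, 34257689 to 34269419), the beta chain of I-A, was the chain most uneven between replicates. It went from 2458, 1988 and 2314 CPM in untreated libraries to 1107, 778 and 1957 with isotype at 4 h, and to 635, 654 and 675 at 24 h. The 3 isotype libraries of 4 h spanned a wide range, with replicate 3 close to the untreated libraries. The fall passed the test at each time, with log2 fold changes of −0.81 (SE 0.279, edgeR adjusted p = 0.0305), −0.8 (SE 0.279, adjusted p = 0.0279) and −1.78 (SE 0.286, adjusted p = 6.69e-05). In fits without 1 library, the calls at 4, 12 and 24 h were kept in 2, 1 and 6 of 6. The 4 h value was −1.26 without both libraries out of title order and −0.4 after GC correction, both called. FcMR libraries had 1717, 1900 and 1525 CPM at 4 h and 740, 572 and 1041 at 24 h, within or across the isotype ranges, and no difference from isotype was called (0.42, 0.08 and 0.26). Without both libraries out of title order the 4 h difference was 0.87 (adjusted p = 0.00397), and after GC correction the 3 differences were 0.42, 0.28 and 0.44, all called.

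H2-Eb1 (chromosome 17, 34305867 to 34316674), the beta chain of I-E, had a mean of 2060 ± 93.2 CPM (SD, n = 3) in untreated cells and of 1447 ± 352, 1257 ± 47.1 and 756 ± 35.1 with isotype at 4, 12 and 24 h. It fell by 0.51, 0.71 and 1.45 on the log2 scale (SE 0.156, 0.157 and 0.159), each called. The 4 h call was lost after GC correction (−0.21, adjusted p = 0.0714), with only the libraries compared (−0.51, adjusted p = 0.0896) and in 2 of 6 fits without 1 library. FcMR means were 1782 ± 194, 1212 ± 130 and 867 ± 171 CPM, and none of the differences from isotype (0.3, −0.05 and 0.2) was called. After GC correction the 24 h difference was 0.33 and was called (edgeR adjusted p = 0.00885), and without both libraries out of title order so was the 4 h difference (0.44, adjusted p = 0.0456). An antisense gene, Gm20513, overlaps H2-Eb1.

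Cd74, the invariant chain, had the highest level per length among the members in untreated cells. Its libraries had 6431, 7095 and 6850 CPM untreated, 5212, 3389 and 6594 with isotype at 4 h, and 7528, 8380 and 6931 with FcMR at 4 h. At 4 h the FcMR libraries all lay above the isotype libraries and overlapped the untreated range. The difference of 0.59 (SE 0.203) had an edgeR adjusted p of 0.0549, just outside the threshold. It was called by DESeq2 (0.66, adjusted p = 0.0104) and by limma voom (0.64, adjusted p = 0.0427). It was also called after GC correction (0.54) and without both libraries out of title order (0.83), among others. Fits without 1 library called it in 2 of 6, at 0.41 to 0.83 (edgeR adjusted p = 0.00796 to 0.183). With only the libraries compared it was not called. Against untreated, isotype was at −0.42 at 4 h (adjusted p = 0.117), at −0.66 and called without both libraries, and at −0.1 and not called after GC correction. Isotype libraries had 4458, 4620 and 4238 CPM at 12 h and 2635, 2732 and 2664 at 24 h, a fall of 0.61 and 1.34 (SE 0.203 and 0.206, adjusted p = 0.022 and 4.22e-05). The 12 h call was kept in 1 of 6 fits without 1 library, and the 24 h call in 6 of 6. FcMR and isotype ranges overlapped at 12 h and 24 h, with differences of 0.04 and −0.06.

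At 4 h the 4 genes of the peptide editors had larger falls below untreated cells than any other member. H2-DMa (chromosome 17, 34119541 to 34139101), the alpha chain of H2-DM, was at 326, 289 and 294 CPM untreated, and at 86.3, 62.7 and 126 CPM after 4 h of isotype. At 12 h it stood at 114, 114 and 108 CPM, and at 24 h at 74.6, 79.7 and 72.2. No isotype library came near the untreated ones at any time. The log2 fold changes were −1.72, −1.44 and −2.0 (SE 0.251, 0.247 and 0.253, edgeR adjusted p = 3.17e-05, 0.000137 and 4.71e-06). FcMR libraries had 112, 124 and 104 CPM at 4 h, 59.5, 99.5 and 86.9 at 12 h, and 46.3, 30.5 and 67.7 at 24 h. At 4 h they exceeded isotype by 0.3, which was not called, and by 0.61 without both libraries out of title order, which was (adjusted p = 0.0489). At 12 h and 24 h every FcMR library lay below every isotype library, by −0.45 (SE 0.244, adjusted p = 0.268) and −0.66 (SE 0.249, adjusted p = 0.0711). Neither difference passed the edgeR test. At 24 h DESeq2 (−0.66, adjusted p = 0.0356) and limma voom (−0.79, adjusted p = 0.0307) called it. So did the fits with GC correction (−0.56) and without both libraries out of title order (−0.66). The replicate block did not (−0.69, edgeR adjusted p = 0.0612). Fits without 1 library called the 24 h difference in 1 of 6, at −0.98 to −0.41 (edgeR adjusted p = 0.00661 to 0.296). H2-DMa shares 9.23% of its 31-base words with Brd2, which overlaps it on the opposite strand.

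H2-DMb1 (chromosome 17, 34153072 to 34160230) was at 301, 289 and 301 CPM untreated and fell to 130, 113 and 161 with isotype at 4 h. At 12 h it was higher again, at 207, 206 and 200 CPM, and at 24 h it was at 121, 127 and 126. Against untreated, the fold changes were −1.14, −0.54 and −1.25 (SE 0.156, 0.153 and 0.156), all called. FcMR libraries had 193, 204 and 162 CPM at 4 h, all above the isotype libraries, by 0.47 (SE 0.155, edgeR adjusted p = 0.0433). That call was kept in 2 of 6 fits without 1 library, and the difference was 0.62 without both libraries out of title order. At 12 h and 24 h FcMR and isotype differed by 0.03 and 0.05.

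H2-DMb2 (chromosome 17, 34143307 to 34151555) had the largest fall of the members. Untreated libraries had 123, 118 and 118 CPM, and isotype libraries 37.1, 25 and 33.7 at 4 h, 24.6, 27.7 and 19.8 at 12 h, and 10.1, 10.6 and 8.1 at 24 h. The fold changes were −1.9, −2.33 and −3.63 (SE 0.142, 0.143 and 0.155, edgeR adjusted p = 8.45e-09, 5.1e-10 and 6.64e-12). FcMR libraries had 42.9, 46.8 and 38.3 CPM at 4 h, 27.8, 28.3 and 25.5 at 12 h, and 18.4, 16.2 and 18.6 at 24 h. All FcMR libraries were above all isotype libraries at 4 h and 24 h, and the ranges overlapped at 12 h. FcMR exceeded isotype by 0.42 at 4 h (SE 0.14, adjusted p = 0.0469), 0.19 at 12 h (adjusted p = 0.451) and 0.88 at 24 h (SE 0.151, adjusted p = 0.000317). The 24 h call was kept in 6 of 6 fits without 1 library (0.78 to 0.96) and the 4 h call in 3 of 6.

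Because both beta-chain genes share much sequence, they were also compared within each library, where depth cancels. H2-DMb2 counts were 40.9, 40.8 and 39.2% of H2-DMb1 counts in untreated libraries. With isotype they were 28.7, 22.2 and 20.9% at 4 h, 11.9, 13.5 and 9.87% at 12 h, and 8.35, 8.38 and 6.44% at 24 h. With FcMR they were 22.3, 22.9 and 23.6% at 4 h, 18.5, 11.6 and 11.1% at 12 h, and 14.4, 14.3 and 12.7% at 24 h. Every treated library had a lower ratio than every untreated one, and at 24 h all FcMR libraries lay above all isotype libraries (mean 13.8% ± 0.996 against 7.72% ± 1.11, SD, n = 3 each; two-sided exact permutation p = 0.1, the smallest that 3 against 3 allows). With the counts of both genes summed, FcMR exceeded isotype by 0.46 at 4 h (edgeR adjusted p = 0.0327), 0.04 at 12 h and 0.13 at 24 h (adjusted p = 0.598), and isotype fell below untreated by 1.32, 0.87 and 1.64, all called. The 24 h difference of H2-DMb2, the less abundant of the pair, was thus not called in their sum.

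The chains of H2-DM also moved apart. H2-DMa counts were 108, 100 and 97.8% of H2-DMb1 counts in untreated libraries, 54.9, 55.2 and 54.1% with isotype at 12 h and 61.8, 63.0 and 57.4% at 24 h. With FcMR they were 39.7, 40.8 and 37.8% at 12 h and 36.4, 26.9 and 46% at 24 h. FcMR libraries were below isotype libraries at both times (exact permutation p = 0.1 each, two-sided), and at 4 h the ranges overlapped (p = 0.6).

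**Figure D3:**
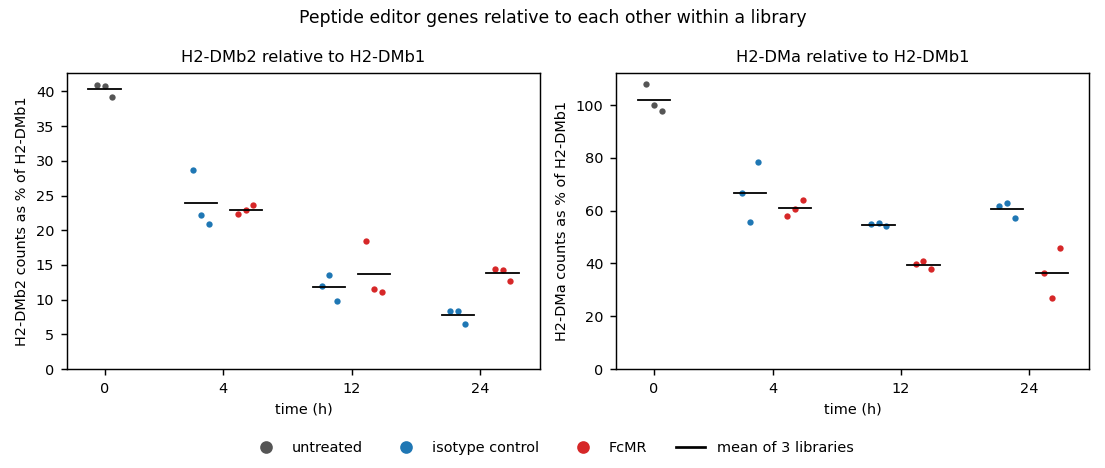
Counts of H2-DMb2 (left) and of H2-DMa (right) as a percentage of H2-DMb1 counts in the same library, against time in h; points are libraries and bars are means of 3. The left ratio drops from a mean of 40.3% to 7.72% with isotype and 13.8% with FcMR at 24 h, and the right ratio from 102% to 60.7% and 36.4%.

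H2-Oa (chromosome 17, 34092340 to 34095234), the alpha chain of H2-O, had the lowest mean level per kb of the members in untreated cells. Its libraries overlapped those of Ciita there. It was at 22.6, 24.7 and 26.7 CPM untreated, 7.46, 4.14 and 9.49 with isotype at 4 h and 4.41, 4.07 and 4.11 at 24 h, where the libraries held 32 to 45 counts. The fold changes against untreated were −1.79, −1.74 and −2.55 (SE 0.26, 0.249 and 0.269), each called. FcMR libraries had 13, 13.5 and 12.5 CPM at 4 h, above all isotype libraries by 0.86 (SE 0.262, edgeR adjusted p = 0.0286). That was the largest FcMR difference among the members at 4 h, and it was kept in 2 of 6 fits without 1 library. Without both libraries out of title order it was 1.15. At 24 h FcMR libraries had 7.49, 3.45 and 6.57 CPM, on both sides of the isotype libraries. H2-Oa shares 18.3% of its 31-base words with BC051537, an antisense gene on the other strand.

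Ctss (chromosome 3, 95526786 to 95556403), the protease that trims the invariant chain, was the member that rose. Untreated libraries had 3900, 4381 and 4683 CPM, and isotype libraries 5146, 4780 and 5416 at 4 h, 5259, 5322 and 6166 at 12 h, and 8191, 7729 and 8779 at 24 h. The isotype libraries were above the untreated ones at each time, by 0.24 (SE 0.0844, edgeR adjusted p = 0.0324), 0.37 (SE 0.0845, adjusted p = 0.00185) and 0.93 (SE 0.0851, adjusted p = 9.59e-08). The 4 h call was kept in 2 of 6 fits without 1 library and was lost after GC correction (0.07) and without both libraries out of title order (0.2).

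FcMR libraries had 5351, 5109 and 5599 CPM of Ctss at 4 h, 4888, 4685 and 5029 at 12 h, and 6221, 5954 and 6095 at 24 h. They overlapped the isotype libraries at 4 h and lay below all of them at 12 h and 24 h. The difference was 0.07 at 4 h, −0.2 at 12 h (SE 0.0844, edgeR adjusted p = 0.135) and −0.43 at 24 h (SE 0.0845, adjusted p = 0.000981). The 24 h call was kept in 6 of 6 fits without 1 library (−0.47 to −0.38). Ctss at 24 h with FcMR remained above the untreated level, by 0.49 (SE 0.0846, adjusted p = 9.84e-05). Whether the FcMR effect differed between the 3 times was tested jointly for each gene, where 11% of all genes were called. Of the members, Ctss was called (adjusted p = 0.0273), and in 14 of 18 fits without 1 library. The counts were 5 both after GC correction and without both libraries out of title order, where 22.2% and 19% of all genes were called. With GC correction the 5 were H2-Aa, H2-DMa, H2-DMb2, Cd74 and Ctss, and without those libraries H2-Aa, H2-DMa, H2-DMb1, Cd74 and Ctss.

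Set per kb of annotated coding transcript, untreated levels placed Cd74 first at 5050 ± 250 CPM per kb (SD, n = 3), Ctss next at 3189 ± 291, H2-Aa at 2941 ± 227, H2-Ab1 at 2535 ± 271 and H2-Eb1 at 1450 ± 65.7. A gap followed, and H2-DMb1 was at 211 ± 5.02, H2-DMa at 183 ± 12.2, H2-DMb2 at 84.0 ± 2.12, Ciita at 27.1 ± 6.14 and H2-Oa at 22.7 ± 1.88 CPM per kb. Ctss and H2-Aa overlapped between libraries, as did H2-Aa and H2-Ab1, and Ciita and H2-Oa, so these neighbours cannot be ordered. After 24 h the order of means had changed at the top. Ctss led with 6076 ± 388 CPM per kb with isotype and 4494 ± 98.6 with FcMR. The mean of Cd74 came next with 1990 ± 37.1 and 1907 ± 501. With FcMR, Cd74 and H2-Aa overlapped then, as did H2-Ab1 and H2-Eb1, so these neighbours cannot be ordered there. H2-DMb2 and Ciita overlapped then in both treatments.

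Among the other class II genes, H2-Ob, the beta chain of H2-O, had a larger fold change at 24 h than any member. It was at 47.2, 47.6 and 43.3 CPM untreated and at 1.96, 2.78 and 2.31 CPM after 24 h of isotype, a change of −4.29 on the log2 scale (SE 0.175, edgeR adjusted p = 4.25e-12). With FcMR at 24 h it was at 3.28, 4.55 and 5.23 CPM, above all isotype libraries by 0.89 (SE 0.181, adjusted p = 0.00147). H2-Eb2, a relative of H2-Eb1, went the other way at first, from 6.79, 7.85 and 7.59 CPM untreated to 36.4, 34.8 and 25.2 with isotype at 4 h, a rise of 2.11 (SE 0.225, adjusted p = 8.05e-07). At 24 h it was at 10.1, 11.5 and 5.53 CPM with isotype and 13.4, 17.2 and 14.2 with FcMR, which differed by 0.73 (SE 0.224, adjusted p = 0.0262). Both genes have the X and Y box letters within the spacing given above, as in H2-Eb1. H2-Ea, the partner chain of H2-Eb1 that C57BL/6 mice do not express, had at most 4 counts in any library and was not tested. Summing H2-Eb1 and H2-Eb2 changed no call of H2-Eb1.

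Of 9 genes of antigen processing in endosomes, none was called between FcMR and isotype at 4 h, 3 at 12 h (1 higher, 2 lower) and 6 at 24 h (1 higher, 5 lower). The median of the list was 0.2, −0.12 and −0.24. Legumain (Lgmn), an asparagine endopeptidase that takes part in cutting the invariant chain, was lower with FcMR by 0.84 at 12 h on the log2 scale and by more at 24 h, at −1.75 (SE 0.0852, edgeR adjusted p = 1.38e-10). Cathepsin L (Ctsl), a relative of cathepsin S, was at −1.05 at 24 h (SE 0.0814, adjusted p = 3.67e-08), and Ctsh at −0.24 at 12 h. Sppl2a, the membrane protease that removes the last piece of the invariant chain, was higher by 0.54 at 12 h and 0.56 at 24 h (SE 0.133 each). Against untreated cells the isotype group had 6 of the 9 higher and 1 lower at 24 h, led by Ctsb and Ctsl (1.21 each), with Cst3, a cathepsin inhibitor, lower (−0.58).

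Of 8 genes that act on class II at the cell surface, 1 was called between FcMR and isotype at 4 h (higher), 5 at 12 h (3 higher, 2 lower) and 6 at 24 h (3 higher, 3 lower). The list's median was 0.08, 0.29 and −0.04. Tetraspanin Cd82 was higher with FcMR at each time (0.65, 0.56 and 1.24, SE 0.177, 0.176 and 0.181), and Cd83, which protects class II from removal by MARCH1, at 24 h by 0.94 (SE 0.143). Marchf1 itself, the ubiquitin ligase that marks class II for degradation, was higher by 0.65 at 12 h (SE 0.156). Cd9 and Cd63 were lower at 12 h (−0.55 and −0.45) and 24 h (−0.9 and −0.55). Against untreated cells, Marchf1 was higher with isotype by 0.92, 1.18 and 1.31 at the 3 times, and at 24 h Cd82 and Cd83 were lower (−1.25 and −1.2).

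Of 13 transcription factors of class II promoters and of Ciita, 4 were higher with FcMR at each time and none lower, with list medians of 0.15, 0.01 and 0.11. Irf1, which acts on Ciita after interferon, led at 4 h with 0.79 (SE 0.101, edgeR adjusted p = 2.69e-05), ahead of Irf8 (0.6, SE 0.168). Irf1 and Irf4 led at 12 h (0.61 and 0.6), and Rfx5, a subunit of the X box factor RFX, and Irf4 at 24 h (0.89, SE 0.127, and 0.7, SE 0.114). With isotype against untreated, 6 were higher and 4 lower at 4 h, 5 higher and 3 lower at 12 h, and 2 higher and 3 lower at 24 h, with list medians of 0.21, 0.01 and −0.07. Those higher included Irf1 at 4 h (1.98, SE 0.105) and Irf8 at 12 h and 24 h (1.5 and 1.22, SE 0.171 and 0.17). Irf4 was lower at each time (−0.67, −1.28 and −1.93), and Rfxank, another RFX subunit, at 4 h (−0.96). The 2 sets of comparisons share the isotype libraries. Percentages of all genes called are those given above for each comparison.

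Outside the members, the genes that tracked the class II core most closely over the 21 libraries were ranked by Pearson's r of log2 CPM with the mean standardised level of H2-Aa, H2-Ab1, H2-Eb1 and Cd74 among 11433 genes. Among the 6 highest were Ezr (0.976), Furin (0.975), Stk40 (0.972), Phldb1 (0.964) and Ewsr1 (0.958). Ezr, for example, had mean levels of 203 CPM untreated and 123, 107 and 53.2 with isotype at the 3 times. Of the other members, H2-Oa had an r of 0.906, H2-DMb2 0.885, Ciita 0.875, H2-DMa 0.837, H2-DMb1 0.791 and Ctss −0.725. All points share the same libraries and the same 7 groups, so these values are a description.

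Markers of other cell types were read alongside. The summed level of 5 B cell markers was 5.92 to 8.13 CPM in untreated libraries and 3.49 to 7.63 CPM in treated ones, and that of 5 T cell markers at most 4.28 CPM, with Cd3e at 0 counts in all 3 FcMR libraries of 24 h. The 7 granulocyte markers fell from 1142 to 1330 CPM in untreated libraries to 159 to 187 with isotype and 194 to 209 with FcMR at 24 h, with Elane at 0 counts in all 3 of the latter. All 7 were lower in both treatments at 24 h than in untreated cells. The 8 dendritic cell markers summed to 1207 to 1354 CPM untreated, 1048 to 1167 with isotype at 24 h and 942 to 971 with FcMR at 24 h, most of it Itgax (mean 1084 CPM untreated), and the single genes moved apart. Against untreated at 24 h, 2 of the 8 were higher and 3 lower with isotype, and 2 higher and 5 lower with FcMR. Clec10a, a lectin, went from a mean of 107 CPM untreated to 3.25 with isotype and 1.7 with FcMR, and Cd209a from 138 to 414 counts per library untreated to at most 1 count in any library of 24 h. Zbtb46, a transcription factor of classical dendritic cells, went from 46.5 to 17.7 and 28.4 CPM, while Flt3, a growth factor receptor, went up from 2.67 to 26.4 and 28.2 CPM. Clec10a and Itgax were lower with FcMR than with isotype at 24 h (−0.94 and −0.22), and Zbtb46 was higher (0.69). The 5 markers of migratory dendritic cells, which carry much class II protein, had a median sum of 2000 CPM untreated, of 6077, 4060 and 1423 with isotype at 4, 12 and 24 h, and 10819, 8290 and 3614 with FcMR. At 4 h 3 of these 5 were higher with FcMR than with isotype, at 12 h 2 and at 24 h 3, and none was lower. Of all genes, 17.7, 16.1 and 20.9% were called in either direction at these times. Ccl22 and Ccl17 make up most of that sum in untreated cells. With FcMR at 24 h Ccl17 was below its untreated level while the sum was above it. Against untreated at 24 h, 3 of the 5 were higher and 1 lower with isotype (list median 0.66) and 4 higher and 1 lower with FcMR (median 1.43), beside the same shares of all genes as for the 8 dendritic cell markers. The one lower was Ccl17, a chemokine, at a mean of 783 CPM untreated and at 27.2 and 71.1 CPM at 24 h, while Ccr7, the receptor that guides these cells to lymph nodes, stood at 250 CPM untreated and at 395 and 671. The marker genes named here were chosen after their values were seen. The part of these cell types in the class II differences was not tested.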

How the data were processed

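Libraries were made from 100 ng of RNA and read as 75 bp single ends, per the labels' protocols. The submitters' processing notes name CASAVA 1.8.2, kallisto 0.44.0, DESeq2 and the builds mm10 and GRCm38, without roles; strand of counting and annotation release are not given in the sources used here. The table the authors deposited as raw holds whole numbers, treated as estimated counts per gene, an inference from kallisto and the values; each gene has at least 10 summed over the libraries. The plan had assumed plain counts, and its test also fits estimated ones. The authors' second deposited table, normalized signal on a linear scale, gave only the scaling factors of an alternative. IDs were matched without version to GENCODE M21 (GRCm38), which named 23206 of 23250 genes (21250 with version); positions and lengths are from there, and promoter windows from RefSeq on GRCm38.p6.

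Libraries were scaled by TMM, genes kept by filterByExpr (minimum 10 counts), and 1 fit of 21 libraries tested with edgeR 4.0.16 (R 4.3.3), which was checked on simulated data. CPM are TMM-scaled; within-library ratios use unscaled counts. Every pair of replicates differed by more than counting noise (lowest chi-square over degrees of freedom 2.96), so each library counted once; 3 counts were worth 0.045 to 0.5423 unscaled CPM. Alternatives were RLE factors, other filters, DESeq2 1.42.0, limma 3.58.1 with voom weights, a replicate block, only the libraries compared, a GC curve per library, the authors' factors, thinning to the smallest library, summed near-copies and leaving libraries out. Members, lists and alternatives were chosen with earlier results of these data known. Named are all members; from each list and comparison up to 2 called genes per direction with the largest change, not all of them printed; and the 6 genes most like the class II core. Some results are not reported here. Genes in the closing part that this rule does not name were named for their change over time or in sign.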

Additional observations from a re-analysis of the deposited data

Results flagged for a closer look

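The effect of FcMR against isotype differed between the 3 times for Ctss and for 7 other genes of the pathway lists, by a joint test of the differences in edgeR with adjustment over all genes. Called were 1 of the 10 members, 4 of the 9 genes of processing in endosomes and 3 of the 8 surface genes. None of the 13 transcription factors was called, and none of the 2 further class II genes tested. The share of all genes called in this joint test is given above, with the levels of Ctss. For each called gene of these lists, the log2 effect at 24 h minus that at 4 h is given. It was −0.5 for Ctss (effects 0.07, −0.2 and −0.43 at 4, 12 and 24 h, adjusted p = 0.0273).

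Among proteases of the endosome it was −1.63 for Lgmn (−0.12, −0.84 and −1.75, edgeR adjusted p = 6.38e-07) and −1.26 for Ctsl (0.21, 0.15 and −1.05, adjusted p = 1.42e-06). It was −0.56 for Ctsb, cathepsin B (0.11, −0.12 and −0.44, adjusted p = 0.00644), and −0.79 for Ctsd, cathepsin D (0.2, −0.41 and −0.6, adjusted p = 0.0349). Each of these 4 and Ctss was lower with FcMR at 24 h, and none was called at 4 h.

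Among tetraspanins it was −1.0 for Cd9 (0.1, −0.55 and −0.9, edgeR adjusted p = 5.96e-06), −0.52 for Cd63 (−0.04, −0.45 and −0.55, adjusted p = 0.0328) and −0.56 for Cd81 (0.2, 0.22 and −0.36, adjusted p = 0.0226). Ctsb, Ctsd, Ctsl, Cd9 and Cd81 overlap other annotated genes, so part of their counts may belong to those.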

How the results depend on the processing

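Over all alternatives, 1838 values of members were recomputed: 1694 kept their call, 70 lost it, 74 gained one and none of the called values reversed, while 43 uncalled values changed sign. The number of members called between FcMR and isotype at 4 h was 4, and 0 with only the libraries compared, 7 after GC correction and 9 without both libraries out of title order, where 17.7% of all genes, and 7.38, 27.8 and 28.3%, were called. At 12 h it was 0, and 3 and 1 under the last 2 of these, and at 24 h it was 3 and 7 after GC correction. With only the libraries compared, the 4 h counts against untreated were 5 for isotype and 8 for FcMR, where 23.1 and 58.0% of all genes were called. The count for the joint test over time was 1, where 11% of all genes were called. It was 2 with RLE factors, DESeq2, only the libraries compared or the authors' factors (all genes: 10.1, 11.7, 9.05 and 7.43%) and 3 after thinning (8.09%). It was 5 after GC correction or without both libraries out of title order (22.2 and 19% of all genes). The cause was not tested. Leaving out 1 library gave 0 to 7, 0 to 0 and 2 to 4 called members for FcMR against isotype at 4, 12 and 24 h; 5 to 8, 7 to 8 and 10 to 10 for isotype against untreated; 5 to 6, 5 to 8 and 10 to 10 for FcMR against untreated; and 0 to 3 for the joint test (0 without FcMR 4 h replicate 1, isotype 4 h replicate 1 or isotype 24 h replicate 3; 3 without isotype 4 h replicate 3 or FcMR 24 h replicate 3; 2 without FcMR 4 h replicate 3 or isotype 12 h replicate 3). Cd37 and Cd82, FcMR against untreated at 24 h, reversed after GC correction, from −0.18 and −0.01, neither called, to 0.23 and 0.24.

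Replicate numbers are shared by the groups in the titles, with no label that says what they mark, and deviations of same-numbered libraries did not correlate above 0.1 in every pair (mean r of −0.071, 0.105 and 0.014 for FcMR against isotype, −0.229 for FcMR against untreated at 12 h). With the replicate number as a block, 5, 0 and 2 members were called for FcMR against isotype, 8, 9 and 10 for isotype against untreated, 5, 9 and 10 for FcMR against untreated, and 1 in the joint test. With RLE factors, 1412 of all genes were higher and 839 lower with FcMR at 4 h, where TMM gave 1161 and 1229. Depth limits genes at low levels, such as H2-Oa, with 23 counts in isotype 4 h replicate 2.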
